A study of Mus musculus with 27 samples.

Results

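The simple epithelial keratins Krt7, Krt8, Krt18 and Krt19 and the surface adhesion molecule Epcam were followed in mouse breast tumor cell lines. The 5 genes were chosen by name and matched by Entrez identifier, and all 5 were among the 24454 identifiers of the deposited expression table. Without cytokine, 7 of the 9 lines expressed Krt7, Krt18 and Epcam above 10 CPM (reads in every 1000000 reads assigned to genes), 8 lines expressed Krt8 and no line expressed Krt19 at that level. Line 2 of the ΔHD1/fl genotype was near 0 for all 5 genes. Line 2 of the ΔHD1/- genotype had Krt7, Krt18, Krt19 and Epcam at 0 to 2.23 CPM but Krt8 at 1089 CPM.

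The lines were derived from thoracic mammary tumors of MMTV-PyMT mice on the FVB/N background, in which the mouse mammary tumor virus promoter drives the polyoma middle T oncogene in the mammary gland; per the methods of the study these were 12-week-old females. Bcl9 and Bcl9L are coactivators that connect β-catenin to Pygopus, and ΔHD1 removes the binding to Pygopus while ΔHD2 removes the binding to β-catenin. The mutant alleles stood beside floxed alleles of Bcl9 and Bcl9L in ΔHD1/fl and in ΔHD2/fl lines, and ΔHD1/- and ΔHD2/- lines had lost the floxed alleles after infection with a Cre-IRES-GFP adenovirus and sorting of GFP-positive cells. Each genotype was represented by 2 lines, except ΔHD2/- with 3, and each line was grown for 4 days without cytokine, for 3 days with Wnt3a at 100 ng/ml, or for 4 days with TGFβ at 2 ng/ml, which gives 27 libraries in 12 groups. The methods of the study name a trypsin step meant to clear fibroblasts from the cultures. Per the labels, replicates within a genotype were lines from different mice. All lines compared carried the PyMT transgene and a mutant Bcl9/Bcl9L allele, and lines with wild-type Bcl9/Bcl9L were not analysed here.

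Keratins form the intermediate filaments of epithelial cells from obligate pairs of a type I and a type II chain. Krt8 and Krt7 are type II chains and Krt18 and Krt19 are type I chains. Krt8 and Krt18 are the first keratin pair of the embryo and the main pair of simple epithelia, and in the mammary gland all 4 are used as markers of luminal cells. Epcam is a homophilic adhesion molecule of epithelial cells whose loss is often followed as a sign of epithelial-mesenchymal transition (EMT), which TGFβ induces in many mammary tumor cells and in which the transcription factors Zeb and Snail bind E-box elements in epithelial promoters.

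In the GRCm38 assembly (GENCODE vM21), Krt7 (Entrez 110310) lies on chromosome 15, 101411043 to 101430313 on the forward strand, with 9 exons and 4094 bases of exon sequence. Krt8 (Entrez 16691) lies on the same chromosome, 101996698 to 102004482 on the reverse strand, with 9 exons and 1958 bases. Krt18 (Entrez 16668) lies at 102028180 to 102032027 on the forward strand, with 7 exons and 1437 bases. Krt18 is thus the only type I keratin of the set that sits in the type II cluster, 23.7 kb from Krt8 with 0 annotated genes between them, and both genes are transcribed away from the gap. Krt19 (Entrez 16669) lies on chromosome 11, 100140810 to 100148665 on the reverse strand, with 6 exons and 1576 bases, and Epcam (Entrez 17075) on chromosome 17, 87635979 to 87651129 on the forward strand, with 10 exons and 2040 bases. Krt7 overlaps the antisense gene Gm671 and Krt8 overlaps the noncoding gene Gm36026, and whether the counting used strand is not given in the sources used here. Keratin genes have close paralogs, and the authors kept reads with a single hit in the genome, so that a read fitting several paralogs was dropped.

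The promoters of Krt8 and Krt18 are shown because these neighbors came apart in a cell line, and those of Krt7 and Epcam because in some of the fits Krt7 was called higher and Epcam lower with TGFβ. Each sequence covers the 250 bases upstream of a start site from RefSeq (GRCm38.p6), read 5′ to 3′ on the strand of the gene, and capitals mark the E-box CACCTG or its reverse complement CAGGTG. The RefSeq starts of Krt7, Krt8 and Krt18 lie inside the wider GENCODE bounds given above.
Krt8, chr15:102004343-102004592, reverse strand: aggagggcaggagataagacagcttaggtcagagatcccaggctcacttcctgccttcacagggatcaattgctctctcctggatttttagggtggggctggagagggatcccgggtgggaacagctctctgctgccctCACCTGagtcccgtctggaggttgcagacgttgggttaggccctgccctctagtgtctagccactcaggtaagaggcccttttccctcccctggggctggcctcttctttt
Krt18, chr15:102027966-102028215, forward strand: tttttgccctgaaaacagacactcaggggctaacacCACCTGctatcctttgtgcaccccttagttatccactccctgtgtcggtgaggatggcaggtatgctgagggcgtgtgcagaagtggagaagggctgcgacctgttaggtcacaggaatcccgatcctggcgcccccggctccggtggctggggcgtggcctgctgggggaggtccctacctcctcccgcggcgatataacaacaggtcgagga
Krt7, chr15:101412153-101412402, forward strand: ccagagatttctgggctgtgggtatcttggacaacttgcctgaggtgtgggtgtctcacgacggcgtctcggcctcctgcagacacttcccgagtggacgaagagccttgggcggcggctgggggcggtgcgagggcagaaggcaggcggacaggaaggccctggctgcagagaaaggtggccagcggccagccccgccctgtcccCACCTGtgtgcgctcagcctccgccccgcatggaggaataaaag
Epcam, chr17:87635729-87635978, forward strand: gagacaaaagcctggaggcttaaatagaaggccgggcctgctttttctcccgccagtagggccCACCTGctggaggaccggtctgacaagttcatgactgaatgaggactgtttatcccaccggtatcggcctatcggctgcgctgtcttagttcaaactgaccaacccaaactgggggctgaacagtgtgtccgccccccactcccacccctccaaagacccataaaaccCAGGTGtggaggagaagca
Counted from the start site, these letters begin at position -111 in Krt8, -214 in Krt18, -44 in Krt7, and -187 and -19 in Epcam. Of 32851 promoter windows of the same length, 17.2% hold the E-box on either strand. The match describes letters in the windows and says nothing about binding. The promoter of Krt19 was not used here.

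Libraries held 21.86 to 33.69 M reads (M, 1000000 reads; median 25.96 M), so that the upper limit for a gene without reads, taken as 3 reads, was 0.089 to 0.137 CPM. Floors cover counting error only. Bcl9 transcripts were found in all 27 libraries at 32.4 to 104 CPM (median 45.9) and Bcl9l at 70.7 to 346 CPM (median 168). These reads do not separate a deleted domain from the full transcript. ΔHD2/- lines 2 and 3 resembled each other more than the replicates of other pairs, with a correlation of log2(CPM + 1) across the tested genes of 0.993 to 0.997 in 3 treatments against 0.807 to 0.957 in 15 other pairs, so they are given singly and, where a result rests on them, also as their average. ΔHD1/fl line 2 and ΔHD1/- line 2 stood apart from the other 7 lines in epithelial and mesenchymal genes, as described next, and the main responses and correlations that rest on them are also given without them.

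Krt8, the type II partner of Krt18, was the most abundant of the 5 genes per length, by the median over lines. Without cytokine its level was 1256 CPM in line 1 of ΔHD1/fl, 1106 and 1089 CPM in ΔHD1/- lines 1 and 2, 1345 and 1509 CPM in ΔHD2/fl lines 1 and 2, and 1388, 601 and 621 CPM in ΔHD2/- lines 1, 2 and 3, against 0.336 CPM (9 reads) in ΔHD1/fl line 2. The 8 lines with Krt8 thus lay within a narrow range and the ninth line lay far below them. Scaled to the exon length of that transcript, the median over 9 lines was 565 CPM per kb for Krt8, 443 for Krt18, 195 for Epcam, 74.7 for Krt7 and 0 for Krt19.

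The level of Krt18 was 641 and 637 CPM in line 1 of ΔHD1/fl and ΔHD1/-, 643 and 662 CPM in ΔHD2/fl lines 1 and 2, and 1506, 163 and 217 CPM in ΔHD2/- lines 1, 2 and 3. ΔHD1/fl line 2 had 0.373 CPM (10 reads) and ΔHD1/- line 2 had 2.23 CPM (75 reads). Each genotype thus had at least 1 line with Krt18, and both ΔHD1 genotypes also had a line almost without it.

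Krt7 varied most among the lines that expressed Epcam. Its level was 1434 and 1159 CPM in line 1 of ΔHD1/fl and ΔHD1/-, 1042 and 306 CPM in ΔHD2/fl lines 1 and 2, and 1383 CPM in ΔHD2/- line 1. ΔHD2/- lines 2 and 3 had only 12.7 and 14.8 CPM (283 and 354 reads) although both kept Krt8, Krt18 and Epcam, and the ΔHD1 lines 2 had 0.0746 CPM (2 reads, fl) and 0.148 CPM (5 reads, recombined).

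Epcam was highest in the ΔHD2/- lines, at 852, 804 and 910 CPM. It was at 397 and 641 CPM in ΔHD2/fl lines 1 and 2, and ΔHD1/fl line 1 (390 CPM) and ΔHD1/- line 1 (263 CPM) came below them. In ΔHD1/fl line 2 it was at 0.0746 CPM (2 reads) and in ΔHD1/- line 2 no read was found, which allows no more than 3 reads. Values of ΔHD2/- lines thus lay above those of all other lines, but the difference from the ΔHD2/fl lines did not pass the limma test described below (0.76 ± 2.80 SE on the log2 scale, adjusted p = 0.978). That SE is pooled over all 12 groups, among them ΔHD1 groups holding lines with and without Epcam. The test thus cannot decide on a difference of this size.

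Krt19, a type I keratin that lacks the usual tail domain, was barely expressed. Without cytokine it was at 6.29 CPM (146 reads) in ΔHD2/fl line 1, 0.740 CPM (20 reads) in ΔHD2/fl line 2 and 0.175 CPM (4 reads) in ΔHD2/- line 1, and 0 reads were found in the other 6 lines. It passed the filter on low values through ΔHD2/fl line 1 alone, in which it was above 1 CPM under each treatment.

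**Figure D1:**
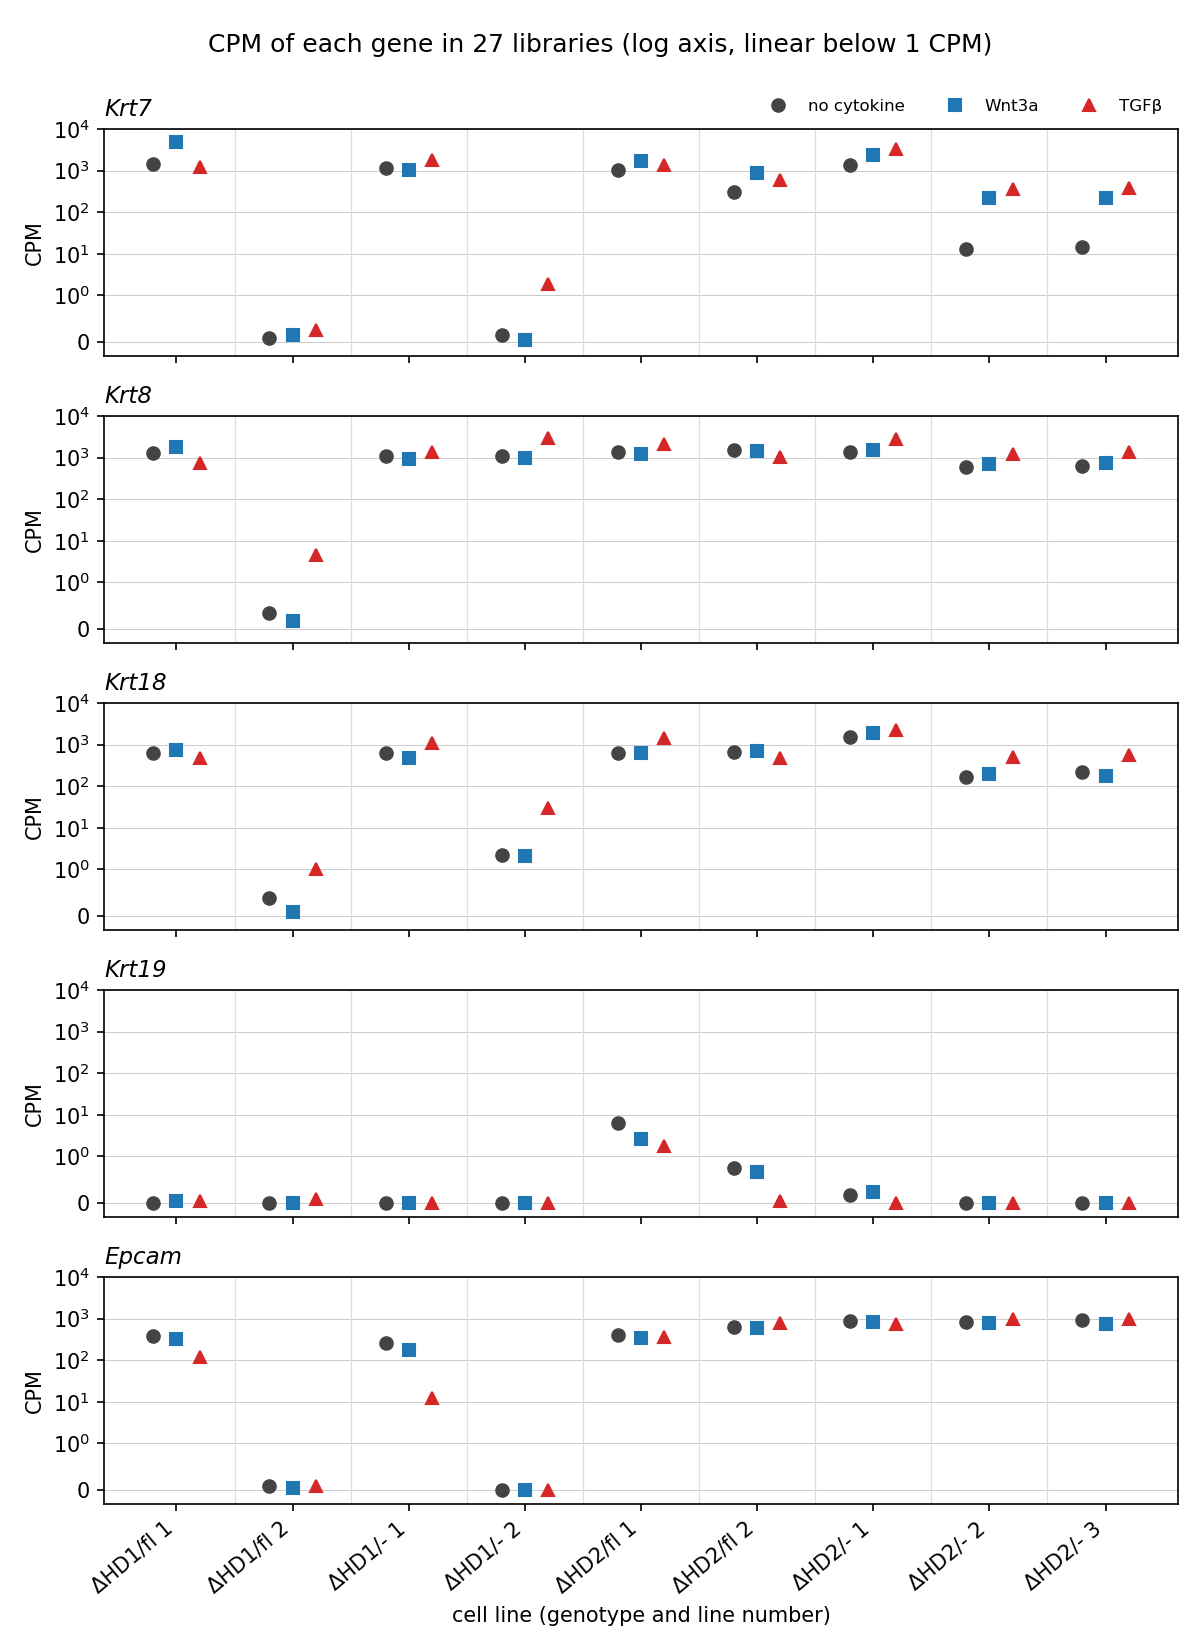
CPM of Krt7, Krt8, Krt18, Krt19 and Epcam in each of the 9 cell lines without cytokine, with Wnt3a and with TGFβ, on an axis that is linear below 1 CPM and logarithmic above it. Each point is 1 library. Krt8 lies above 600 CPM in 8 lines without cytokine, ΔHD1/fl line 2 lies below 5 CPM for all genes and treatments, and Krt19 stays below 10 CPM throughout.

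Where a genotype held lines with and without a gene, the SD exceeded the mean. For Epcam without cytokine the ΔHD1/fl and ΔHD1/- means were 195 ± 276 and 132 ± 186 CPM (SD, n = 2 each), against a ΔHD2/fl mean of 519 ± 172 CPM (SD, n = 2) and a ΔHD2/- mean of 856 ± 53.1 CPM (SD, n = 3). For Krt8 the ΔHD1/fl mean was 628 ± 888 CPM and the ΔHD1/- mean 1097 ± 12.3 CPM (SD, n = 2 each), and the ΔHD2/fl and ΔHD2/- means were 1427 ± 116 CPM (SD, n = 2) and 870 ± 449 CPM (SD, n = 3). Recombined lines were compared with the fl lines of their family by limma on log2(CPM + 1), with all 27 libraries in 1 fit, and calls needed an adjusted p (Benjamini-Hochberg) up to 0.05 together with a log2 fold change of 1 or more in either direction. Over 3 treatments and both families, none of 30 member comparisons was called without a block, against 0.0678%, 0.0452% and 0.0301% of 13270 tested genes in ΔHD1 without cytokine, with Wnt3a and with TGFβ and 0.55%, 0.686% and 0.354% in ΔHD2. Of the 30, 2 had an unadjusted p under 0.05, both Krt19 in ΔHD2. Neither edgeR nor DESeq2 called any without a block. Krt19 passed the filter only through a ΔHD2/fl line, the higher group of that comparison, so its values there are a description. Krt8 differed by 4.74 ± 2.79 (SE) in ΔHD1 without cytokine, and by -0.19 ± 0.64 (SE, limma adjusted p = 0.957) when ΔHD1/fl line 2 was left out. When ΔHD1/fl line 1 was left out, so that line 2 stood alone for its genotype, Krt8 was called under all 3 treatments at log2 fold changes of 8.49 to 9.68.

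Several epithelial genes divided the lines in the same way as Epcam, and others did not. Cdh1 (E-cadherin) reached 606 to 1145 CPM in the other 7 lines, against 0.522 CPM (ΔHD1/fl) and 0.237 CPM (ΔHD1/-) in the ΔHD1 lines 2. Esrp1, an epithelial splicing factor, was at 195 to 530 CPM in the 7 lines, and 0 reads were found in the ΔHD1 lines 2. Grhl2, a transcription factor of epithelial cells, was at 52.8 to 187 CPM in the 7 lines and at 0.0373 and 2.11 CPM in the ΔHD1 lines 2. Trp63, a transcription factor of basal epithelium, was not lower there, at 180 and 75.8 CPM against 0.209 to 82.8 CPM in the 7 lines. Ppl, a linker of keratin filaments, was at 209 CPM in ΔHD1/fl line 2, within the 143 to 365 CPM of the 7 lines, and at 38.7 CPM in ΔHD1/- line 2.

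The mesenchymal filament gene Vim ran the other way, at 2.48 to 761 CPM in the 7 lines and at 4188 and 3678 CPM in ΔHD1/fl line 2 and ΔHD1/- line 2. Zeb1, a repressor of epithelial genes, was at 1.31 to 52.9 CPM in the 7 lines and at 205 and 134 CPM in the ΔHD1 lines 2, and Zeb2 was at 0.592 to 10.2 CPM against 29.1 and 24.5 CPM. Of the other EMT factors, Snai1 (69.3 and 61.6 CPM against 13.6 to 74.0 CPM) and Snai2 (10.7 CPM in each against 0.457 to 33.3 CPM) lay within the range of the 7 lines. ΔHD2/- lines 2 and 3, the lines with the least Krt7 among those with Epcam, had the lowest Vim of all lines.

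The labelled epithelial identity was met in 7 lines, and in the ΔHD1 lines 2 by some lists of epithelial genes only. Of a list of 7 pan-epithelial genes, Epcam among them, 5 to 7 were at 1 CPM or more in the 7 lines, 0 in ΔHD1/fl line 2 and 1 in ΔHD1/- line 2. In the same order, the counts were 11 to 12, 4 and 4 of 12 epithelial transcription and splicing factors. They were 5 to 9, 3 and 5 of 13 luminal genes, 11 to 12, 11 and 10 of 12 keratin filament linkers, and 2 to 7, 4 and 3 of 9 basal genes. Of 8 fibroblast markers, 0 to 6 were at 1 CPM or more in the 7 lines with a summed level of 1.05 to 220 CPM, 5 in ΔHD1/fl line 2 (2649 CPM) and 6 in ΔHD1/- line 2 (6466 CPM). Col1a1 was at 659 and 2603 CPM in these lines against 0.837 to 14.8 CPM elsewhere and Pdgfrb at 762 and 473 CPM against 0 to 193 CPM, while Lum was at 0 in all 9 lines, Thy1 at 0 in the ΔHD1 lines 2 and Dcn at 0.858 and 1.51 CPM. The 6 haematopoietic markers summed to 183 CPM in ΔHD1/- line 2, most of it Csf1r at 165 CPM, against 3.10 to 13.9 CPM in the 7 lines and 16.2 CPM in ΔHD1/fl line 2. The part of other cell types in the low keratin and Epcam values was not tested, and in bulk RNA fewer cells of a type and less RNA per cell cannot be told apart.

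A basal keratin was still measured in the ΔHD1 lines 2, where Krt7, Krt18 and Krt19 were near 0. Krt8 was near 0 in ΔHD1/fl line 2 only. Krt14, the type I keratin of basal cells, was at 1000 to 8746 CPM in the 7 lines and still at 356 and 223 CPM in ΔHD1/fl line 2 and ΔHD1/- line 2. Its usual partner Krt5 was at 0.128 to 6826 CPM in the 7 lines and at 1.04 and 0.920 CPM in the ΔHD1 lines 2. Krt80, another type II keratin outside the basal set, was at 33.5 to 98.3 CPM in the 7 lines and had 31.9 and 2.58 CPM in the ΔHD1/fl and ΔHD1/- lines 2.

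**Figure D2:**
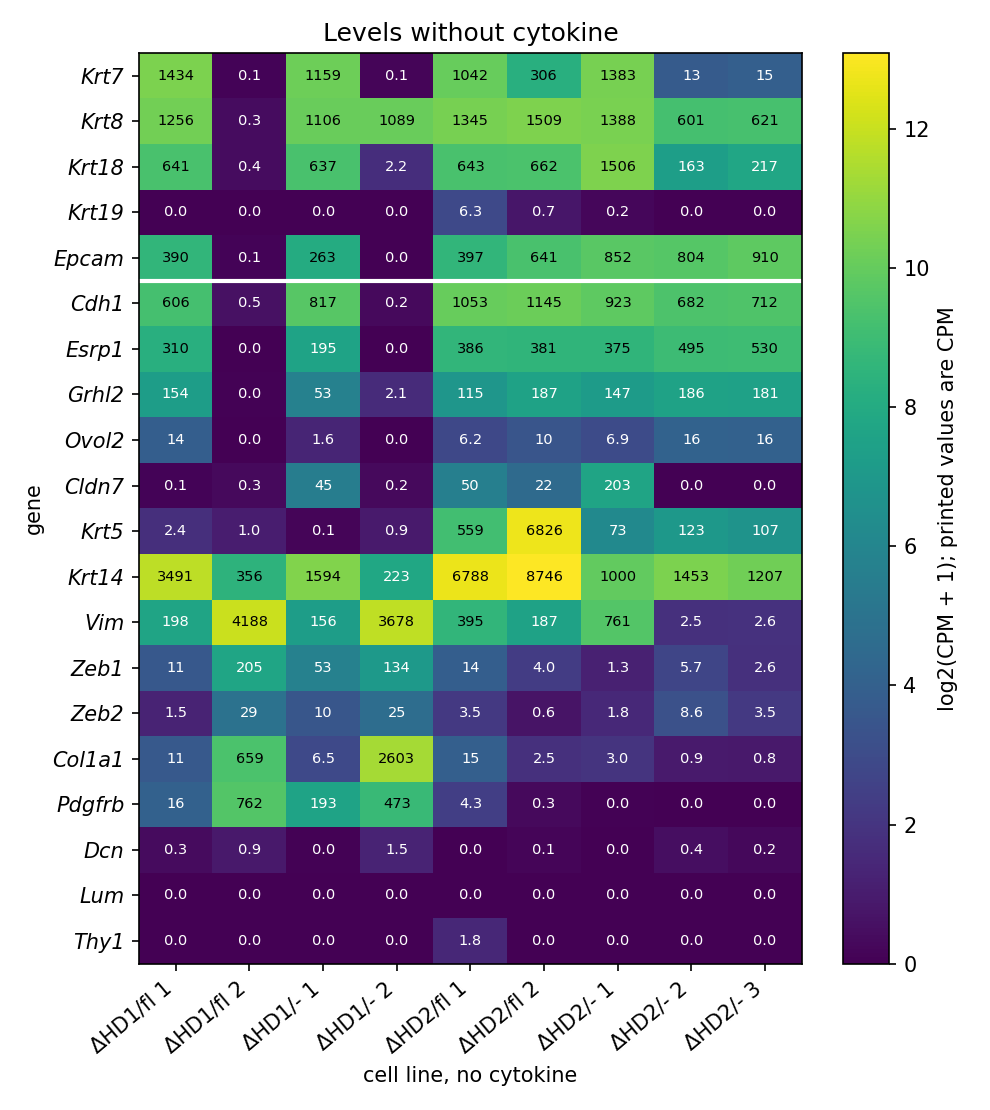
Heat map of log2(CPM + 1) without cytokine in the 9 cell lines (columns) for the 5 genes and for epithelial, basal, mesenchymal and fibroblast genes (rows), with the CPM printed in each cell. In the ΔHD1/fl and ΔHD1/- lines 2 Epcam, Cdh1 and Esrp1 are below 1 CPM and Vim is at 4188 and 3678 CPM, and Krt8 is low only in ΔHD1/fl line 2.

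Krt8 and Krt18, which pair in the filament, were in a similar proportion in most lines. Per kb of exon sequence, the ratio of Krt8 to Krt18 was 0.605 to 3.13 (median 1.47) over the 21 libraries of the 7 lines with Epcam. In ΔHD1/- line 2 it was 359 without cytokine, 345 with Wnt3a and 72.4 with TGFβ. This line had as much Krt8 as the other lines and almost no Krt18, Krt19 or Krt7.

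Keratins among the members and lists were summed, 7 of type I and 4 of type II (Krt5, Krt7, Krt8 and Krt80), and other keratins were left out. In ΔHD1/- line 2 the type I sum was 226 CPM without cytokine, nearly all of it Krt14. The type II sum was 1092 CPM, nearly all of it Krt8. With TGFβ the sums were 121 and 2938 CPM. In ΔHD1/fl line 2 the type I and type II sums were 357 and 33.4 CPM without cytokine, and 34.7 and 84.2 CPM with TGFβ. These sums do not measure the balance of all type I and type II chains.

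**Figure D3:**
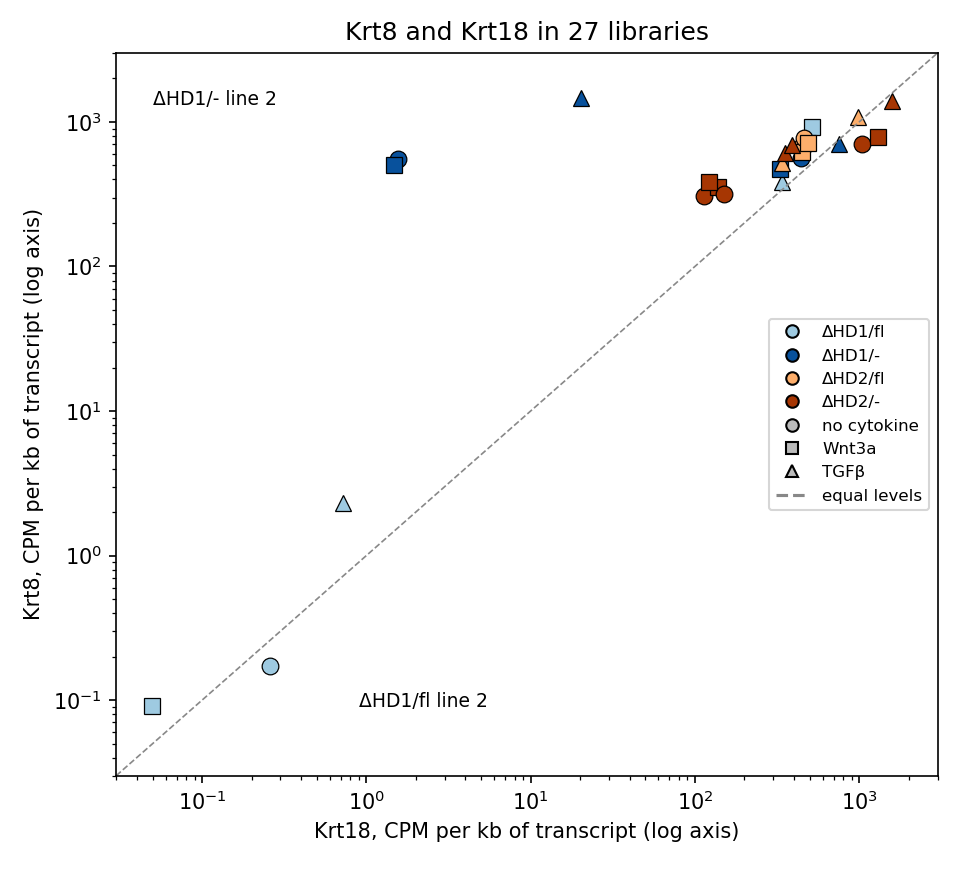
Krt18 against Krt8 in CPM per kb of exon sequence in the 27 libraries, with both axes logarithmic, color for genotype, marker shape for treatment and a dashed line where both are equal. The 21 libraries of the 7 lines with Epcam lie near the line, at ratios of Krt8 to Krt18 of 0.605 to 3.13, and the 3 libraries of ΔHD1/- line 2 lie apart with ratios of 72.4 to 359.

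Over all 27 libraries, Krt7 and Krt18 had the highest correlation among the members (Pearson r of log2(CPM + 1) 0.943, and 0.914 over the 9 lines without cytokine), followed by Krt18 and Epcam (0.871 and 0.939). Krt8 and Krt18 reached only 0.755 and 0.724, and Krt19 was at 0.185 to 0.295 with the others. These values are descriptions, since libraries of the same line are not independent. Over the 21 libraries without the ΔHD1 lines 2 the order was another one, with Krt8 and Krt18 at 0.890, Krt7 and Krt18 at 0.788, Krt18 and Epcam at -0.196 and Krt7 and Epcam at -0.382. Among all tested genes, those most like Epcam were St14 (0.998), Esrp1 (0.995), Lsr (0.994), Spint2 (0.993) and Tmem102 (0.988), at 0.924 to 0.984 over the 21 libraries. St14 encodes the membrane protease matriptase and Spint2 an inhibitor of such proteases, and Lsr a protein of tricellular junctions. Genes much like Krt18 were Pard6b (0.952), Epb41 (0.947), Ripk4 (0.926) and Kcnk1 (0.924), at 0.0765 to 0.735 over the 21 libraries, and those most like Krt7 were Cldn4 (0.951), Wnt7a (0.915), Ccdc88c (0.909), Spin2c (0.905) and Epb41 (0.904), at 0.519 to 0.867. Krt8 had weaker neighbors, with Chst7 at 0.913, 1110051M20Rik at 0.895, Atg9b at 0.809, Wfdc2 at 0.797 and Cln3 at 0.796, which over the 21 libraries were at -0.485 to 0.312. Those of Krt19 (En2 0.935, Nexmif 0.932, Espn 0.926, Thy1 0.922 and Ctnnd2 0.912) rest on ΔHD2/fl line 1, in which Krt19 was highest.

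With TGFβ, Krt7 was higher in 7 of the 8 lines with more than 3 reads in both conditions, and the ratio was largest where it had been low. In ΔHD2/- lines 2 and 3 it went from 12.7 to 357 CPM and from 14.8 to 371 CPM, 28.0-fold and 25.1-fold, and in ΔHD2/- line 1 from 1383 to 3317 CPM (2.40-fold). In the ΔHD2/fl lines 1 and 2 it reached 1365 and 593 CPM (1.31-fold and 1.94-fold), and in ΔHD1/- lines 1 and 2 it reached 1812 CPM and 1.84 CPM (51 reads). ΔHD1/fl line 1 was the exception, with 1189 CPM and a fold of 0.830, and ΔHD1/fl line 2, not counted, was at 0.0746 CPM (2 reads) without cytokine and 0.249 CPM (7 reads) with it.

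Krt8 was higher with TGFβ in 7 of 9 lines. It went to 2884 CPM in ΔHD1/- line 2, the highest value of this gene, and to 2110 CPM in ΔHD2/fl line 1, 2714, 1193 and 1365 CPM in ΔHD2/- lines 1, 2 and 3 and 1370 CPM in ΔHD1/- line 1. It was lower in line 1 of ΔHD1/fl (748 CPM) and line 2 of ΔHD2/fl (1016 CPM), folds of 0.595 and 0.673. In ΔHD1/fl line 2 it went from 0.336 to 4.54 CPM (128 reads), 13.5-fold but still far below the other lines.

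Krt18 followed Krt8 line by line in direction. It went from 2.23 to 29.2 CPM (812 reads, 13.1-fold) in ΔHD1/- line 2, from 643 to 1408 CPM in ΔHD2/fl line 1, and to 2280, 506 and 558 CPM in ΔHD2/- lines 1, 2 and 3 (1.51-fold, 3.11-fold and 2.57-fold). It was lower, at 484 and 486 CPM, in ΔHD1/fl line 1 and ΔHD2/fl line 2, the same lines in which Krt8 was lower. The ratio of Krt8 to Krt18 in ΔHD1/- line 2 changed by -2.31 on the log2 scale with TGFβ, against changes of -0.65 to 0.37 in the 7 lines with Epcam. In ΔHD1/fl line 2, where both genes were near 0 without cytokine, it changed by 2.29, from 0.661 to 3.24 per kb.

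Epcam was lower with TGFβ in some lines and not in others. In ΔHD1/- line 1 it went from 263 to 12.5 CPM (316 reads, a fold of 0.0476) and in ΔHD1/fl line 1 from 390 to 117 CPM (a fold of 0.301). In the ΔHD2 lines it kept to 0.862 to 1.21 of its level, at 361 and 777 CPM in ΔHD2/fl lines 1 and 2 and 735, 965 and 951 CPM in ΔHD2/- lines 1, 2 and 3. Both ΔHD1 lines 2 stayed at or under 3 reads, so no change could be measured there. The difference between the ΔHD1 and ΔHD2 families was not tested.

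Krt19 was at 1.74 CPM (46 reads) with TGFβ in ΔHD2/fl line 1, a fold of 0.276, at 0.0355 CPM (1 read) in ΔHD2/fl line 2 and at 0 in ΔHD2/- line 1. In the other 6 lines it was at or under 3 reads in both conditions.

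The mean TGFβ response over the 4 genotypes was tested in the same fit. None of the 5 members was called, against 5.42% of the 13270 tested genes (1.86% higher and 3.56% lower), and none had an unadjusted p under 0.05. By edgeR and DESeq2 none was called either. The log2 fold changes were 1.28 ± 2.20 for Krt7, 0.64 ± 1.33 for Krt8, 0.90 ± 1.64 for Krt18, -0.27 ± 0.24 for Krt19 and -0.72 ± 1.47 (SE) for Epcam, and the limma adjusted p was 0.739, 0.786, 0.754, 0.471 and 0.782. The median of all tested genes was -0.16, and it was -0.02 with median-of-ratios scaling, which left the direction of all 5 members as it was.

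The standard errors of that fit hold the differences between lines, which the labels allow to be removed because each replicate number stands for a cell line plated at the same time for all treatments. With cell line as a block, Krt7 rose by 1.28 ± 0.34 (SE, limma adjusted p = 0.00845) and was the only member called, against 8.92% of all genes (3.02% higher and 5.9% lower). It was called with each of the 9 lines left out (1.13 to 1.56, limma adjusted p up to 0.0429) and with ΔHD2/- lines 2 and 3 averaged (1.14, limma adjusted p = 0.0235), and the call was lost without both ΔHD1 lines 2 (1.14, limma adjusted p = 0.0685). Krt18 reached 0.90 ± 0.27 (limma adjusted p = 0.0152) and Krt19 -0.27 ± 0.09 (limma adjusted p = 0.0252), both under the limit on fold change, and Krt18 was called when ΔHD1/fl line 1, ΔHD1/- line 1 or ΔHD2/fl line 2 was left out (1.02, 1.21 and 1.10). Krt18 no longer passed the adjusted p when ΔHD1/- line 2 (0.59, limma adjusted p = 0.0753), ΔHD2/fl line 1 (0.71, limma adjusted p = 0.0819) or ΔHD1/fl line 2 (0.78, limma adjusted p = 0.0535) was left out, nor without both ΔHD1 lines 2 (0.47, limma adjusted p = 0.158). Krt8 (0.64 ± 0.29, limma adjusted p = 0.0797) and Epcam (-0.72 ± 0.35, limma adjusted p = 0.103) did not pass. edgeR on the recovered reads with the same block called 4 members against 13.8% of all genes, Krt7 at 1.62, Krt8 at 1.07, Krt18 at 1.25 and Epcam at -1.30 (edgeR adjusted p = 0.0135, 0.0479, 0.0166 and 2.08e-05).

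The Epcam result depended on the lines that lacked the gene. Without both ΔHD1 lines 2 it fell by 1.48 on the log2 scale and was called with limma without a block (adjusted p = 0.000993, 7.79% of 12976 genes called) and with the block (adjusted p = 1.74e-05, 11.2% called), where line 1 alone stands for each ΔHD1 genotype and is assumed to vary like the ΔHD2 lines. Leaving out ΔHD1/- line 2 alone gave -1.26 with the block (limma adjusted p = 0.000367), and leaving out ΔHD1/- line 1, the line with the lowest fold, gave -0.19 (limma adjusted p = 0.412). The mean fall thus rested on the ΔHD1 lines 1, while the 5 ΔHD2 lines kept to 0.862 to 1.21 of their level. Without both lines Krt8 was at 0.16 (limma adjusted p = 0.437 with the block).

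**Figure D4:**
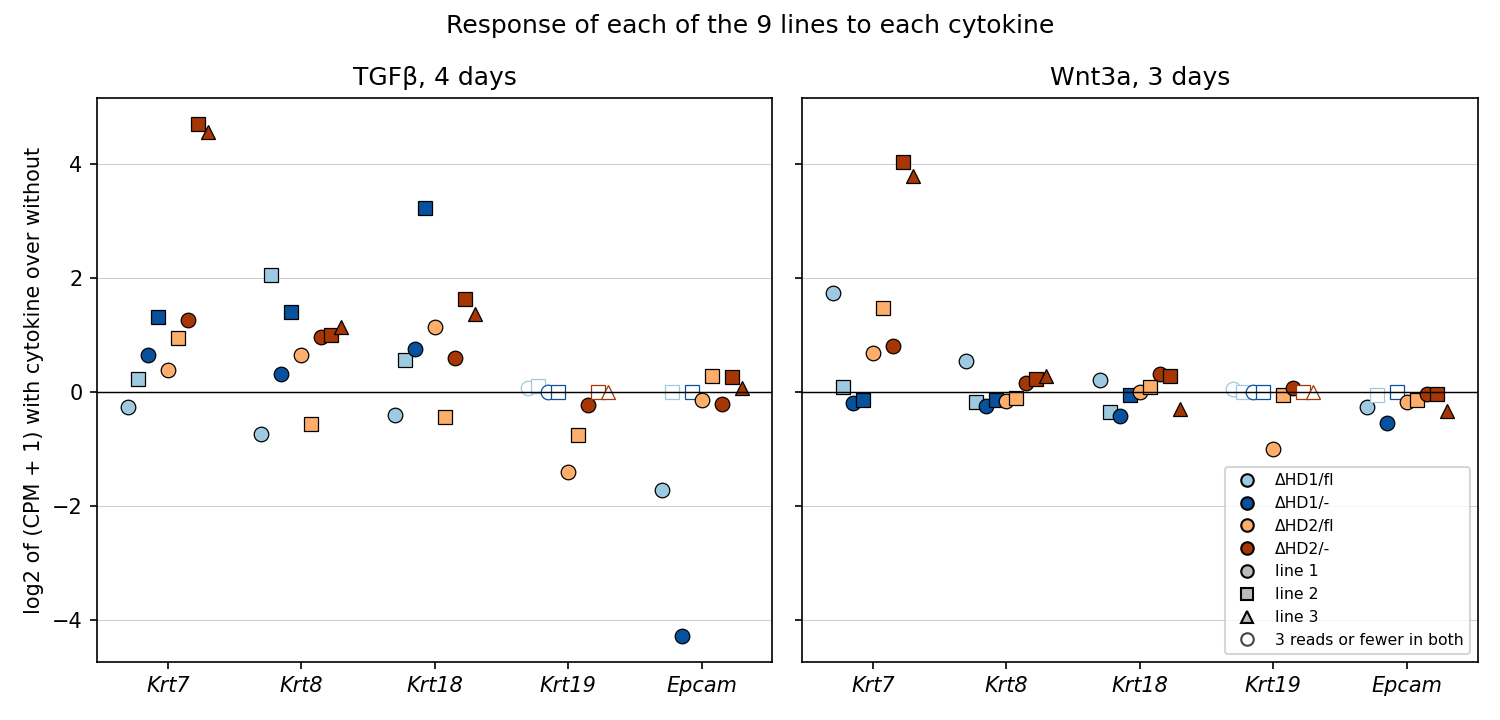
Difference in log2(CPM + 1) between treated and untreated libraries of each cell line for the 5 genes, TGFβ for 4 days on the left and Wnt3a for 3 days on the right, with open points where both libraries held 3 reads or fewer. With TGFβ Krt7 reaches 4.70 and 4.56 in ΔHD2/- lines 2 and 3 and Epcam -4.29 in ΔHD1/- line 1, and with Wnt3a only Krt7 moves by more than 1 upward.

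Within single genotypes, no member was called in the fit without a block, against 0.211% and 1.43% of genes for ΔHD1/fl and ΔHD1/- and 0.286% and 0.806% for ΔHD2/fl and ΔHD2/-. Of the 20 comparisons, 1 had an unadjusted p under 0.05 (Krt19 in ΔHD2/fl), and edgeR and DESeq2 called none. With cell line as a block 3 were called, among them Krt19 in ΔHD2/fl, whose fall is a description for the reason given below. Krt7 rose in ΔHD2/- by 3.51 ± 0.58 (SE, limma adjusted p = 0.00207, against 6.03% of genes called), and it was called with each line left out (2.91 to 4.63) and with lines 2 and 3 averaged (2.94). Krt18 rose in ΔHD1/- by 1.99 ± 0.56 (limma adjusted p = 0.0262, 9.33% of genes called), and that call was lost without ΔHD1/- line 2, where it was 0.76 (limma adjusted p = 0.514). Krt19 fell in ΔHD2/fl by 1.08 ± 0.19 (limma adjusted p = 0.00509, 5.24% of genes called), from levels of 0.740 and 6.29 CPM, and it could not be tested without ΔHD2/fl line 1, the line through which it passed the filter, so this fall is a description. Krt8 and Krt18 were higher in 3 of 3 ΔHD2/- lines at 1.03 ± 0.49 and 1.20 ± 0.46 (limma adjusted p = 0.186 and 0.103), and Krt8 was called there when either ΔHD1/fl line was left out (limma adjusted p = 0.0169 without line 1 and 0.0170 without line 2). Without both ΔHD1 lines 2 and with the block both were called there (limma adjusted p = 0.0119 for Krt8 and 0.0437 for Krt18), as was Krt7 (limma adjusted p = 0.0061), against 7.11% of genes, while the call of Krt18 in ΔHD1/- was lost (0.76, limma adjusted p = 0.448).

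Epcam in ΔHD1/- was at -2.14 ± 0.73 (limma adjusted p = 0.0554) and in ΔHD1/fl at -0.86 ± 0.73 (limma adjusted p = 0.481, 5.42% of genes called) with the block. In each of these genotypes line 2 held no measurable Epcam. Without both ΔHD1 lines 2 and with the block it was called in both, at -4.29 for ΔHD1/- (limma adjusted p = 2.87e-05, 12.3% of genes called) and -1.72 for ΔHD1/fl (limma adjusted p = 0.00265, 12.6% called), each from 1 line, and without a block only in ΔHD1/- (limma adjusted p = 0.00145, 2.27% called). With the same block edgeR called both (5.84% of genes called in ΔHD1/fl and 9.41% in ΔHD1/-), at -4.17 for ΔHD1/- and -1.44 for ΔHD1/fl (edgeR adjusted p = 7.14e-05 and 0.0132), along with Krt18 in ΔHD1/- (2.57, edgeR adjusted p = 0.0446) and Krt7 in ΔHD2/- (3.46, edgeR adjusted p = 0.0107, 8.44% of genes called), and none in ΔHD2/fl (4.49% called). The difference in TGFβ response between recombined and fl lines was not called for any member in either family with or without the block, against 0.00754% of genes in ΔHD1 and 0.0301% in ΔHD2 without a block. Of all 20 differences in TGFβ or Wnt3a response between recombined and fl lines, 0 had an unadjusted p under 0.05 without the block and 4 with it, and edgeR and DESeq2 called none.

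The response of the wider epithelial program gives the setting of these values. Of 12 epithelial transcription and splicing factors, 0 rose and 5 fell in the mean TGFβ response (10 fell with cell line as a block), against 5.42% of all genes called without and 8.92% with the block, and the median log2 fold change was -1.76 against -0.16 for all genes. The 5 were Grhl1 (-2.29 ± 0.65), Grhl3 (-2.46 ± 0.54), Ehf (-2.16 ± 0.56), Klf5 (-1.14 ± 0.31) and Trp63 (-2.73 ± 0.91 SE), with limma adjusted p of 0.0233, 0.00528, 0.0144, 0.0185 and 0.0472. With the block Grhl2, Ovol1, Esrp1, Elf3 and Klf4 were called as well. Of the EMT factors, none of 6 was called without and 1 with the block, Zeb2 (1.29 ± 0.34, limma adjusted p = 0.00802). Without both ΔHD1 lines 2 and with the block, where 11.2% of all genes were called, all 12 epithelial factors fell (median -2.17), among them Esrp1 at -1.94 and Grhl2 at -1.74, and of the EMT factors Zeb1 (1.22) and Zeb2 (1.63) rose and Twist2 (-1.32) fell.

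Among 15 tested of 16 relatives, partners and proteases of Epcam, 1 rose, Cd44, a hyaluronan receptor that associates with Epcam (1.35 ± 0.38, limma adjusted p = 0.0211), and 0 fell. A count of 1 in 15 is near the 5.42% of all genes called in this fit, as is the 1 in 12 of the next list. With the block Prss8, the protease prostasin, fell by 1.66 ± 0.44 (limma adjusted p = 0.0085). With the block and without both ΔHD1 lines 2, Cd44 rose (1.19) and 6 of the 15 fell, among them Prss8 (-2.51), Spint1 (-1.88), St14 (-1.33) and Cldn7 (-1.19). Cldn7, a claudin that binds Epcam, was at 0 in ΔHD2/- lines 2 and 3 under all 3 treatments although both had more than 700 CPM of Epcam.

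Of 12 linkers of keratin filaments to junctions and to other filaments, 0 rose and 1 fell, the periplakin gene Ppl (-3.89 ± 0.59, limma adjusted p = 0.000396). Evpl and Pkp3, which encode envoplakin and plakophilin 3, fell as well with the block (-2.11 ± 0.62 and -1.27 ± 0.21, limma adjusted p = 0.0148 and 0.000453), and without both ΔHD1 lines 2 Dsp (-1.23) and Eppk1 (-1.36) did too. Of the 2 tested of 3 other simple keratins none was called.

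Basal and luminal markers were read beside the members, against the 5.42% of all genes called without and 8.92% with the block. Of 7 tested of 9 basal genes, 0 rose and 3 fell (Krt15, Oxtr and Trp63), and with the block Krt5 (-2.12 ± 0.50, limma adjusted p = 0.00412) and Krt14 (-2.09 ± 0.25, limma adjusted p = 4.38e-05) fell as well while Acta2 rose. Krt14 and Krt5 thus moved opposite to Krt7 in the same fit. Of 11 tested of 13 luminal genes none was called without the block, and Kit, Esr1 and Prlr fell with it. Of 7 pan-epithelial genes none was called without the block. With it Cdh1 (-1.53 ± 0.59, limma adjusted p = 0.0481), Esrp1 and Grhl2 fell, and Cldn4, the gene most like Krt7, rose (1.81 ± 0.30, limma adjusted p = 0.000478). When both ΔHD1 lines 2 were left out and the block kept, 5 basal genes fell, Krt5 (-2.33) and Krt14 (-2.25) among them, while Acta2 (0.68) and Kit (-1.22, limma adjusted p = 0.054) were not called. Of the pan-epithelial genes Cdh1 was then at -2.63, Esrp1 at -1.94, Grhl2 at -1.74, Cldn7 at -1.19, Cldn3 at -0.32 and Cldn4 at 1.76. The fall of Epcam there is a description, as given above.

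Markers of other cells were counted in the same way, against the same shares. Of 7 tested of 8 fibroblast markers none was called, and Col1a1 rose with the block (1.21 ± 0.36, limma adjusted p = 0.0146). Of 2 tested of 6 haematopoietic markers none was called and Csf1r rose with the block, of 2 tested of 4 endothelial markers Cdh5 rose in both fits, and none of 3 adipocyte markers was expressed high enough to be tested. In the fit without the ΔHD1 lines 2 and with the block, Col1a1 (1.66), Col1a2 (1.36), Csf1r (2.10) and Cdh5 rose. The part of these genes in the member values was not tested.

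With Wnt3a, Krt7 was higher in 6 of the 7 lines with more than 3 reads in both conditions. It went from 12.7 to 224 CPM and from 14.8 to 217 CPM in ΔHD2/- lines 2 and 3 (17.6-fold and 14.7-fold), from 1434 to 4768 CPM in ΔHD1/fl line 1 (3.33-fold) and from 306 to 850 CPM in ΔHD2/fl line 2 (2.78-fold). It reached 1666 CPM in ΔHD2/fl line 1 and 2410 CPM in ΔHD2/- line 1. It was lower in ΔHD1/- line 1, at 1017 CPM (a fold of 0.878), and the ΔHD1 lines 2, not counted, were at 0.142 and 0.0405 CPM (4 reads and 1 read). The untreated libraries are the same as for TGFβ, so that both responses share them.

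Krt8, Krt18 and Epcam differed by less than 1 on the log2(CPM + 1) scale between Wnt3a and no cytokine in all 9 lines. The Krt8 level was 1821 CPM in line 1 of ΔHD1/fl, 925 and 988 CPM in ΔHD1/- lines 1 and 2, 1206 and 1399 CPM in ΔHD2/fl lines 1 and 2, 1540, 699 and 748 CPM in ΔHD2/- lines 1, 2 and 3, and 0.178 CPM (5 reads) in ΔHD1/fl line 2. The Krt18 level was 740 CPM in line 1 of ΔHD1/fl, 474 and 2.11 CPM in ΔHD1/- lines 1 and 2, 642 and 698 CPM in ΔHD2/fl lines 1 and 2, 1867, 198 and 176 CPM in ΔHD2/- lines 1, 2 and 3, and 0.0710 CPM (2 reads) in ΔHD1/fl line 2. Krt8 was higher in 4 lines and lower in 5, and Krt18 higher in 4 and lower in 4 of the 8 lines with more than 3 reads in both conditions, and over all 9 lines the log2 differences lay between -0.26 and 0.54 for Krt8 and between -0.43 and 0.31 for Krt18.

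Epcam was lower with Wnt3a in all 7 lines in which it could be measured, by small amounts. Its level was 322 CPM in ΔHD1/fl line 1, 179 CPM in ΔHD1/- line 1, 349 and 579 CPM in ΔHD2/fl lines 1 and 2, and 827, 782 and 724 CPM in ΔHD2/- lines 1, 2 and 3, folds of 0.679 to 0.972. Krt19 was at 2.62 CPM (65 reads) in ΔHD2/fl line 1, 0.674 CPM (17 reads) in ΔHD2/fl line 2 and 0.231 CPM (6 reads) in ΔHD2/- line 1.

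In the mean Wnt3a response none of the 5 members was called, against 0.0226% of the 13270 tested genes, and none had an unadjusted p under 0.05. The log2 fold changes were 1.17 ± 2.20 for Krt7, 0.01 ± 1.33 for Krt8, -0.05 ± 1.64 for Krt18, -0.12 ± 0.24 for Krt19 and -0.19 ± 1.47 (SE) for Epcam. edgeR and DESeq2 called none. The small value of Krt18 turned to 0.02 with median-of-ratios scaling and that of Krt8 to -0.04 with a pseudocount of 0.1, so neither gene has a direction. With cell line as a block Krt7 was at 1.17 ± 0.34 (limma adjusted p = 0.143), against 0.241% of genes called (0.362% by edgeR with the block), and in ΔHD2/- at 2.87 ± 0.58 (limma adjusted p = 0.225). Krt7 was called in the mean response with the block when ΔHD1/fl line 2 (1.38, limma adjusted p = 0.0495) or ΔHD2/- line 1 (1.43, limma adjusted p = 0.00822) was left out, and not without both ΔHD1 lines 2 (1.37, limma adjusted p = 0.127, 1.24% of genes called). Within genotypes none of 20 comparisons was called in either fit with all 9 lines, against 0.0867% of all gene tests with the block, and 0.0151%, 0.00754%, 0.113% and 0.00754% of genes in ΔHD1/fl, ΔHD1/-, ΔHD2/fl and ΔHD2/- without a block, and 0 had an unadjusted p under 0.05 without a block and 2 with it. With the block and without ΔHD2/- line 1, Krt7 was called in ΔHD2/- (3.91 ± 0.40 SE, limma adjusted p = 0.00195). No gene of the lists named above was called in the mean Wnt3a response by limma with or without the block, and within genotypes 2 basal genes fell in ΔHD2/fl with the block and no other was called.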

How the data were processed

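Stranded mRNA libraries were sequenced as single reads, and the authors aligned them with STAR (mm10, per the labels), kept single hits, counted exonic reads with QuasR and used edgeR. The deposited table holds CPM values (24454 Entrez identifiers, 24374 matched to a symbol through a RefSeq GRCm38.p6 table, 80 not), with no further scaling by the authors. All values (100%) were whole multiples of 1 read (tolerance 0.01), so reads were recovered for edgeR 4.0.16 and DESeq2 1.42.0.

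Genes that reached 1 CPM in fewer than 2 libraries were left out, and the other 13270 were analysed on the log2(CPM + 1) scale, which understates changes of low genes, with limma 3.58.1 in R 4.3.3 (lmFit, eBayes with trend and robust). All 27 libraries entered 1 fit of 12 group means for 20 comparisons, with Benjamini-Hochberg adjustment over all genes tested. P-values are two-sided.

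The pairing was checked on deviations from group means. Libraries of 1 line under different treatments correlated in 27 of 27 pairs (0.509 to 0.940), and the labels give the number as a cell line, so values with the line as a block are given. Recombined and fl lines of the same number correlated above 0.1 in 9 of 12 pairs (0.0871 to 0.472) and were not taken as pairs.

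The members and lists were chosen with earlier results of these data known. Named genes were the members, Bcl9 and Bcl9l, preset partner genes, list genes called in a mean response, and for each member the 5 tested genes of highest correlation, and 2 genes within this rule are not reported here. The other named marker genes (St14 apart, which the last rule names) were picked from the lists after their values were seen. The fits were run on simulated data in which lines differed from a shared mean level by a modest random amount. Members nearly absent from some lines are not covered by that run. Alternatives were another pseudocount, no filter, other scalings, the compared groups alone, the block, edgeR, DESeq2, leaving out lines, averaging ΔHD2/- lines 2 and 3, and no limit on fold change. Leaving out both ΔHD1 lines 2, and joining the block to an average or to left-out lines, was chosen after seeing the data.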

Additional observations from a re-analysis of the deposited data

Results flagged for a closer look

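For 5 contrasts of Wnt3a responses all lines of a genotype moved one way and all lines of another genotype the opposite way, on the log2(CPM + 1) scale. For Krt7 the mean response was 0.91 and -0.17 in the ΔHD1/fl and ΔHD1/- genotypes and 1.07 and 2.87 in the ΔHD2/fl and ΔHD2/- genotypes. ΔHD1/- lay 1.08 below ΔHD1/fl (a difference of -1.08), and ΔHD2/fl and ΔHD2/- lay 1.24 and 3.04 above ΔHD1/-. In ΔHD1/- line 2 the Krt7 value rests on 5 reads without cytokine and 1 read with Wnt3a, and in ΔHD1/fl line 2 on 2 and 4 reads. For Krt8 the mean response was -0.20 in ΔHD1/-, -0.13 in ΔHD2/fl and 0.21 in ΔHD2/-, so that ΔHD2/- lay 0.41 above ΔHD1/- and 0.35 above ΔHD2/fl.

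The differences within a family were tested as the difference in response between recombined and fl lines, and neither passed (Krt7 in ΔHD1 -1.08 ± 6.50 SE and Krt8 in ΔHD2 0.35 ± 3.60 SE, limma adjusted p = 1 for both). Those SEs hold the differences between lines. With cell line as a block the values were -1.08 ± 1.01 and 0.35 ± 0.77 (SE), and neither was called. The differences between ΔHD1/- and the ΔHD2 genotypes were not tested. With 2 or 3 lines a genotype, no group was large enough for a check of single outlying samples.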

How the results depend on the processing

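With all 9 lines and no block no member was called, and the counts of calls among the 5 members changed mainly with the block. In the mean TGFβ response the count was 1 with the replicate block and 4 with edgeR and the replicate block, 1 without both ΔHD1 lines 2 (with or without the block), 1 with ΔHD2/- lines 2 and 3 averaged and the block, and 1 to 2 when each line was left out with the block. In single genotypes under TGFβ it was 3 and 4 in the first pair of settings, 1 without both ΔHD1 lines 2 and 6 without them with the block, 3 with the average and the block, and 2 to 5 with each line left out and the block. With Wnt3a it was 0 to 1 in the mean and in single genotypes with each line left out and the block. For recombined against fl lines it was 1 with the block on the line number (Krt19 in ΔHD2) and 1 with edgeR and that block (Epcam in ΔHD1 with TGFβ), and 0 to 3 with each line left out; it was 3 without ΔHD1/fl line 1 (Krt8) and 3 without ΔHD2/fl line 2 (Krt19, which passed the filter only through ΔHD2/fl line 1, so that these calls support nothing). These numbers are not shown to pair recombined and fl lines. The replicate block in limma changed no other call of a member. Calls of Epcam among the counts without both ΔHD1 lines 2 support nothing, since these lines were left out after its level was seen. Calls of Krt19 in ΔHD2/fl among the counts in single genotypes under TGFβ are descriptions. The share of all gene tests called moved with the same settings. In the mean TGFβ response it was 5.42% in the fit as reported, 8.92% with the block, 13.8% with edgeR and the block, 7.79% and 11.2% without both ΔHD1 lines 2 (without and with the block), 9.05% with the average and the block and 8.19% to 10.6% with each line left out and the block. Over the single genotypes it was 6.5%, 7.05%, 2.02%, 9.95%, 4.56% and 4.35% to 8.67% in the same order of these alternatives. With Wnt3a and each line left out and the block it was 0.0456% to 1.65% in the mean and 0.019% to 1.07% in single genotypes. For recombined against fl lines it was 0.77% with the block, 0.182% with edgeR and the block and 0.0918% to 2.41% with each line left out.

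For the mean TGFβ response, Krt7 was called with the replicate block (1.28), with edgeR and the block (1.62), with the average and the block (1.14) and over 1.13 to 1.56 with each line left out and the block, and it was not called without both ΔHD1 lines 2 with the block (1.14, limma adjusted p = 0.0685). Krt8 was called with edgeR and the block (1.07, and 0.29 to 1.00 with each line left out and the block). Krt18 (1.25, and 0.59 to 1.21) and Epcam (-1.30, and -1.26 to -0.19) were called likewise. Without both ΔHD1 lines 2 Epcam was at -1.48 with or without the block, a description, since these lines were left out after its level was seen. For the mean Wnt3a response Krt7 ranged over 0.97 to 1.43 with each line left out and the block. Krt8 turned to -0.044 with a pseudocount of 0.1 and ranged over -0.075 to 0.10 with each line left out, with or without the block. Krt18 turned to 0.023 with median-of-ratios scaling, 0.017 with TMM, 0.11 with edgeR, 0.016 with edgeR and the block and 0.12 with DESeq2, and ranged over -0.12 to 0.025 with each line left out, with or without the block. The cause of these changes was not tested. Of all 446 alternative values of a log2 fold change, 365 kept their direction and their side of the threshold, 65 passed it anew and 16 turned.

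Each genotype has 2 or 3 lines, and a line left out leaves some genotypes with 1, which is then assumed to vary like the others. Krt19 and the ΔHD1 lines 2 rest on few reads, where a change of a few reads sets the fold. The Wnt3a cultures ran for 3 days and their controls for 4. Whether fl and recombined lines of a number share a tumor is not given by the labels.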
